A study of Solanum lycopersicum with 18 samples.

Results

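The comparison examined here is the difference between the heat response of hsfa1a knock-down tomato plants and that of the wild type (WT). It is the mean change of lines CS2 and CS3 from 0 h to 1 h of heat stress minus the change of WT over the same hour, on the log2 scale, and all 18 libraries of the series, of 18 in all, enter it. WT and both hsfa1a lines are in the cultivar Moneymaker (MM). All plants were 4 weeks old and came from a growth chamber at 24 °C with 16 h of light, and RNA of the fourth leaf was taken without heat (0 h) or after 1 h at 45 °C. The hsfa1a lines are transgenic and carry a hairpin construct that produces RNA interference (RNAi) against HSFA1a, so that the gene is intact and its transcript is the target of the knock-down. Each of the 6 conditions (WT, CS2 and CS3, each at 0 h and 1 h) holds 3 libraries. The deposited description of the series calls them biological replicates, whereas the methods of the study state fewer independent replicates, each a pool of seedlings, so part of the spread between libraries that the p-values measure may be technical. A line may be a single transformation event, and the names CS2 and CS3 of the deposited table are not paired by the labels with the line names of the study.

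Heat stress factors (HSFs) are transcription factors that bind heat shock elements in promoters and switch on chaperone genes when proteins start to unfold. In tomato, HSFA1a is known as the factor that acts first and on which the induction of others, such as HSFA2 and the repressor-like class B factor HsfB1, depends. Small heat shock proteins (HSPs) hold unfolded proteins, HSP70 and HSP40 chaperones refold them, HSP90 matures signalling proteins, and HSP100/ClpB pulls aggregates apart. The question of the comparison is which parts of the leaf's first hour of heat response differ when HSFA1a is targeted.

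Total counts per library were between 1713285 and 3669618. The labelled tissue is leaf, and transcripts of the light-harvesting protein CAB7 were found at 359 to 728 CPM (library-size-scaled counts) in the 18 libraries. A pair of libraries stood apart from their groups. CS3 at 0 h replicate 2 held 0.353% of its counts on plastid genes, against 0.146% to 0.184% in the other line libraries at 0 h, and separated from the rest on the third principal component (7.51% of the variance). CS2 at 1 h replicate 3 had the highest total count of all 18 libraries and the lowest plastid share of the line libraries at 1 h (0.135% against 0.306% to 0.429%). The comparison is therefore given with and without them. In bulk leaf RNA, fewer cells of a type and less RNA per cell cannot be told apart.

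HSFA1A itself (Solyc08g005170.3, minus strand of chromosome 8 at 127049 to 132599 of the M82 assembly) was examined first. At 0 h it was found at a mean of 73.8 ± 9.45 CPM (SD, n = 3; 66.6 to 84.5) in WT and between 62.2 and 90.3 CPM (median 69.8) in the 6 line libraries, a log2 difference of -0.04 ± 0.13 (SE) that did not pass the test (edgeR quasi-likelihood, adjusted p = 0.978). After 1 h it was at 78.1, 71.6 and 61.9 CPM in WT and between 86.9 and 133 CPM (median 114) in the libraries labelled CS2 and CS3. The groups overlapped at 0 h and did not overlap at 1 h, where the level was higher in the labelled lines. The interaction, as the difference between the heat responses is called below, was 0.70 ± 0.19 for HSFA1A (adjusted p = 0.0147). It was 0.61 with an adjusted p of 0.058 without WT at 1 h replicate 3. The counts of the targeted gene thus do not show the knock-down that the labels give, and reads of the hairpin cannot be told apart from those of the native transcript. Directions below are those of libraries labelled CS2 and CS3.

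The heat response differed between the labelled lines and WT for 3232 of the 15312 genes tested (21.1%; edgeR quasi-likelihood test with Benjamini-Hochberg adjustment, threshold 0.05). Of these, 1637 (10.7% of the genes tested) were higher, meaning that the change with heat was more positive in the lines, and 1595 (10.4%) were lower. At an unadjusted p under 0.05 there were 5244. The median size among called genes was 0.89 on the log2 scale, the smallest 0.33, and 1315 of them (670 higher and 645 lower) had a size of at least 1. Without CS3 at 0 h replicate 2, 3954 genes passed, and 4145 did without both libraries that stood apart. The smallest number, 2260, was obtained without WT at 1 h replicate 3, and 1811 genes were called in the full set and again with each of the 18 libraries left out in turn.

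**Figure D1:**
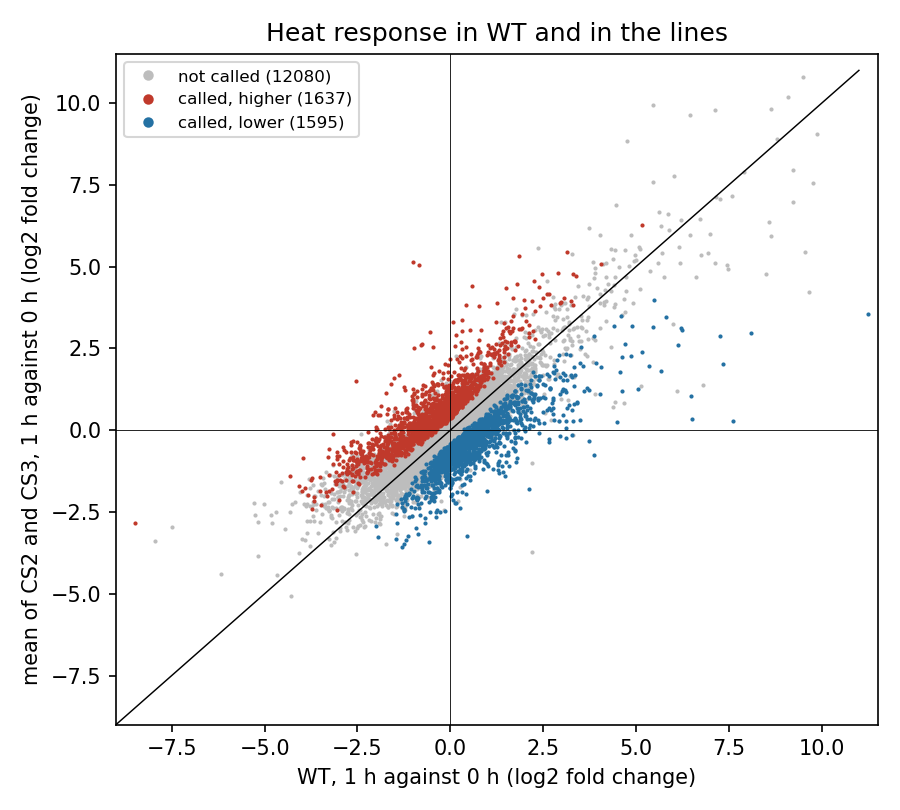
Heat response of each of the 15312 tested genes in WT (x axis, log2 fold change, 1 h against 0 h) and as the mean of CS2 and CS3 (y axis, log2 fold change), with genes called higher in red (1637), lower in blue (1595) and the others in grey; the diagonal marks equal responses. The cloud follows the diagonal, called genes lie on either side of it, and values of the 22 genes that hold 0 counts in some condition depend on the prior count of the fit.

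The 2 terms of the comparison share no library and can be set side by side. In WT 7563 genes (49.4% of those tested) passed the test of the heat response, and in the mean of the lines 10439 (68.2%) did, a count that rests on 12 libraries against 6 and so is not comparable as a number. Across the 15312 genes the responses had a Pearson r of 0.79, as a description over genes that are not independent of each other, and their spread was alike, with an SD of 1.10 in WT and 1.01 in the lines. Within the lines, the responses of CS2 and CS3 had an r of 0.93. The interaction was centred near 0, with a median of 0.05 and an SD of 0.69 over all genes.

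The interaction can also be read as the difference between lines and WT at 1 h minus their difference at 0 h. At 0 h, 25 genes differed (0.163%; 1088 at an unadjusted p under 0.05), whereas 5342 differed at 1 h (34.9%). For the genes called higher, the median difference from WT was -0.08 at 0 h and 0.79 at 1 h, and for those called lower it was 0.07 and -0.81. The values at 1 h thus made up most of the interaction of the called genes, and those at 0 h a small part of the opposite sign. The genes were chosen by the interaction, from which the difference at 0 h is subtracted. The opposite sign at 0 h therefore follows in part from that choice and is not a result of its own.

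The called genes were then sorted by what heat did to them in WT and in the lines. Over all tested genes, 24.2% were induced and 25.2% repressed in WT, and 34.2% and 34% in the lines. Of the 1595 genes called lower, 822 (51.5%) were induced in WT, with a median response of 1.06 in WT and 0.07 in the lines. Among these, 375 were induced in WT with no call in the lines (medians 0.89 and -0.02), 282 were induced in both with medians of 1.75 and 0.76, and 165 were induced in WT and repressed in the lines (0.65 and -0.49). The other 773 lower genes were not called induced in WT. Most of them, 629, had no call in WT (median 0.04) and were repressed in the lines (median -0.83), and 129 were repressed more strongly in the lines (-0.68 and -1.54). The lower genes were thus divided about equally between those called induced in WT and those without such a call. This split moved with the scaling, to 747 and 955 with library size only and to 714 and 836 with the upper quartile.

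The genes called higher formed the mirror image. Of 1637, 799 (48.8%) were repressed in WT, with medians of -1.18 in WT and -0.19 in the lines. They comprised 337 genes repressed in both (-1.85 and -0.73), 335 with no call in the lines (-0.87 and 0.03) and 127 that were induced in the lines (-0.71 and 0.50). Another 597 had no call in WT (median -0.05) and were induced in the lines (0.71), and 229 were induced in both with a larger response in the lines (0.90 and 1.76). In 12 higher and 15 lower genes neither response passed the test. These classes use the same libraries as the interaction and are a description, with no test of their own; a missing call in WT or in the lines is not evidence of no change.

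**Figure D2:**
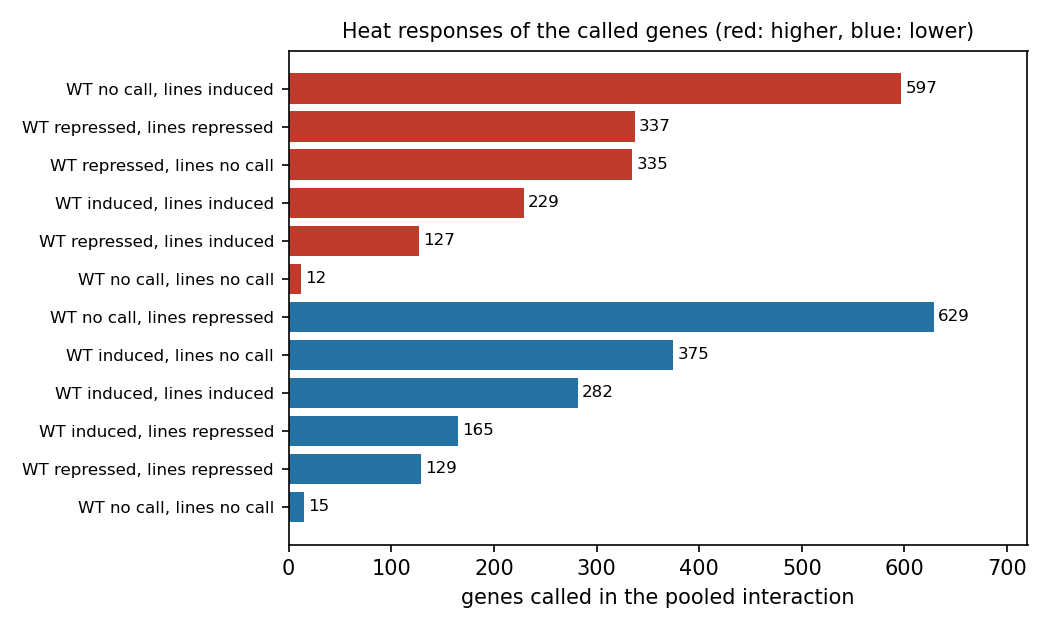
Number of genes called in the interaction (x axis) by the direction of the interaction (red, higher; blue, lower) and by the call of the heat response in WT and in the mean of CS2 and CS3. The longest bars are the 597 higher genes induced in the lines without a call in WT and the 629 lower genes repressed in the lines without a call in WT.

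Among genes with a symbol, SGT1, PP5, FLACCA and det2 were prominent on the lower side. SGT1 (Solyc11g010660.2; the symbol is shared by unrelated plant proteins, and which of them this gene encodes was not determined) was at 62.7, 52.9 and 52.3 CPM in unheated WT and rose to 268, 336 and 219 CPM with heat. In the line libraries it was between 35.5 and 69.4 CPM at 0 h (median 59.8) and between 58.8 and 90.3 CPM at 1 h (median 73.0), without overlap with heated WT. The response was 2.29 in WT and 0.38 in the lines, and the interaction -1.91 ± 0.22 (SE; adjusted p = 2.02e-05), -2.33 in CS2 and -1.50 in CS3.

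PP5 (Solyc07g055860.4), a serine/threonine protein phosphatase whose relatives bind HSP90, moved in opposite directions. It was at 57.5, 72.2 and 59.7 CPM in WT at 0 h and at 125, 97.5 and 118 CPM at 1 h. In the lines it went from between 60.1 and 77.6 CPM (median 64.6) to between 31.4 and 57.5 CPM (median 48.5), so that every heated line library lay below every heated WT library. WT rose by 0.84, the lines fell by 0.49 on the log2 scale, and the interaction was -1.33 ± 0.17 (adjusted p = 5.05e-05).

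FLACCA (Solyc07g066480.3) encodes the molybdenum cofactor sulfurase that the last step of abscisic acid synthesis needs. It was at 25.8, 17.7 and 19.1 CPM in unheated WT and at 143, 84.8 and 129 CPM after 1 h. In the lines its range was 7.38 to 32.3 CPM at 0 h (median 20.8) and 14.5 to 40 CPM at 1 h (median 22.9), without overlap with heated WT. The interaction was -2.29 ± 0.43 (adjusted p = 0.00111), with a response of 2.51 in WT and of 0.22 in the lines, the latter without a call. NCED1, the enzyme that cleaves carotenoids in the rate-limiting step of the same pathway, had mean levels of 124 CPM at 0 h and 279 CPM at 1 h in WT, and its interaction of -0.76 did not pass the test (adjusted p = 0.0631). NCED1 passed in 8 of 29 settings, with values between -0.97 and -0.66, among them -0.94 (adjusted p = 0.0412) with counts corrected for the ceiling that duplicate removal sets and -0.95 (adjusted p = 0.0109) without CS2 at 1 h replicate 1.

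The steroid reductase gene det2 (Solyc10g086500.1), which acts in brassinosteroid synthesis, belonged to the class without a WT call. It was at 44.1, 44.3 and 26.1 CPM in WT at 0 h and at 34.7, 43.7 and 48.7 CPM at 1 h, values that overlap. The lines held 31.3 to 79.4 CPM at 0 h (median 48.1) and 5.82 to 18 CPM at 1 h (median 11), all below heated WT. The interaction was -2.36 ± 0.42 (adjusted p = 0.000672), nearly the same in CS2 (-2.34) and CS3 (-2.39).

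The channel gene GLR3.5 and the calmodulin gene CaM5 were lower as well. CaM5, a calmodulin that carries calcium signals, had an interaction of -1.15 (adjusted p = 0.00061) with mean levels at 1 h of 115 CPM in WT, 59.2 CPM in CS2 and 63.9 CPM in CS3. GLR3.5, a glutamate receptor-like channel, had -1.19 (adjusted p = 0.00341), with 106 to 151 CPM in heated WT and 36.1 to 59.8 CPM in the heated lines. Both were induced in WT and neither was called in the lines.

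PSK2, a precursor of the peptide hormone phytosulfokine, was at 1 to 5 counts per library at 0 h in every condition. At 1 h it was at 29.5, 18.3 and 34.7 CPM in WT and between 1.34 and 4.56 CPM (median 3.34) in the lines, without overlap. Its interaction of -3.37 ± 0.80 (adjusted p = 0.00573) rests on these few counts at 0 h. The DNA methyltransferase gene DRM6 (-1.66), the lactate dehydrogenase gene ldh1 (-1.56) and ERABP1 (-1.64) were lower as well, each past the test under every alternative tried. The CHRDi gene (-2.84, adjusted p = 0.0362) and GolS2 (-1.72, adjusted p = 0.0402), a galactinol synthase that makes the precursor of protective raffinose sugars, were less firm: CHRDi passed in 20 of 29 settings (interaction between -3.35 and -2.17) and GolS2 in 16 of 30 (-1.99 to -1.37).

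Of the genes without a symbol, Solyc08g007240.4 and Solyc03g118060.3 had the most negative interactions under the same rule. Solyc08g007240.4 (plus strand of chromosome 8, 1816397 to 1820562) was at 45.0, 54.9 and 48.3 CPM in heated WT and at 0.98 to 11 CPM (median 5.12) in the heated lines, while at 0 h WT held 0 or 1 count and CS2 replicate 1 alone reached 14.3 CPM. Its interaction was -7.33 ± 1.39 (adjusted p = 0.00125), a size that depends on those counts near 0. Solyc03g118060.3 (minus strand of chromosome 3, 63086041 to 63086882) held 0 counts in all 3 unheated WT libraries and 120, 108 and 105 CPM after heat. In the heated lines it was at 2.00, 0 and 0.284 CPM in CS2 and at 12.7, 32.7 and 15.5 CPM in CS3, all below heated WT. No fold is given against the level of 0, and the call (adjusted p = 0.0282) was lost without CS2 at 0 h replicate 1 and in a fit of 4 conditions (adjusted p of up to 1).

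Heat shock proteins and co-chaperones were induced in WT and in the lines: each of the 12 tested members of this list passed the test of both heat responses, with median responses of 3.2 in WT and 2.55 in the lines. In the interaction 2 were higher and 1, SGT1, was lower (25% called, against 21.1% of all genes), with a median of -0.33. SGT1 was placed in the list on its symbol alone. Without it 11 members remained, of which 2 were called, both higher, and the median was -0.02. The median of the 12 was between -0.56 (without CS2 at 1 h replicate 1) and -0.17 (without CS2 at 1 h replicate 3) when a library was left out, -0.09 without both libraries that stood apart, and -1.46 over the 2 members, SGT1 and FKBP65, whose highest count stayed under 0.3 of the gene length. The called members other than SGT1 were BiP/grp78, the HSP70 of the endoplasmic reticulum, and hsc70.3, an HSP70. All tested members but SGT1 and FKBP65 reached 0.3 of their length, a share at which the removal of duplicate reads makes counts level off. With counts corrected for this ceiling the median of the 12 was -0.41, and the median without SGT1 was not computed. BiP/grp78 then kept its call (0.89, adjusted p = 0.00954), that of hsc70.3 was lost (1.05, adjusted p = 0.0648), and HSP100/CLPB passed (-0.82, adjusted p = 0.0451).

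BiP/grp78 (Solyc08g082820.4) was at 139, 193 and 184 CPM in WT at 0 h and at 357, 403 and 279 CPM at 1 h. In the lines it was between 163 and 239 CPM at 0 h (median 182) and between 537 and 943 CPM at 1 h (median 588), above every heated WT library. Its interaction was 0.80 ± 0.23 (adjusted p = 0.0168), with an adjusted p of up to 0.0663 without replicate 3 of WT at 0 h or at 1 h. For hsc70.3 the groups overlapped at 1 h (832 to 1010 CPM in WT, 519 to 1120 CPM in the lines) but not at 0 h, where WT held 22.4 to 29.1 CPM and the lines 3.10 to 20.4 CPM. Its difference from WT was -1.20 at 0 h and -0.07 at 1 h, neither of them past the test, and its interaction of 1.13 (adjusted p = 0.0447) passed in 12 of 29 settings, with values between 0.94 and 1.51.

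For HSP100/CLPB and the small HSPs of chromosome 6 the interaction was negative in CS2 and nearer to 0 in CS3. The disaggregase HSP100/CLPB was at 1180, 1330 and 1050 CPM in heated WT. It was at 803, 417 and 372 CPM in heated CS2, below WT, and at 1060, 1290 and 888 CPM in heated CS3, where the values overlap. Its interaction was -0.67 (adjusted p = 0.0883), and it passed in 4 of 29 settings, among them -0.91 (adjusted p = 0.00203) without CS2 at 1 h replicate 1 and -0.82 (adjusted p = 0.0451) with corrected counts. The value for CS2 was -1.17, which passed (adjusted p = 0.0132), and that for CS3 was -0.16, which did not (adjusted p = 0.785); the difference between the lines, -1.01, did not pass (adjusted p = 0.34). HSP17-6, a small HSP on chromosome 6, was at 298, 296 and 259 CPM in heated WT. The heated CS2 libraries held 142, 36.3 and 34 CPM, and those of CS3 held 250, 320 and 217 CPM. CS2 replicate 1 was thus closer to WT than the other libraries of its line.

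The same library stood apart for the neighbouring small HSP genes HSP17.8 (134 CPM against 37.3 and 27.8) and Hsp20.0 (200 CPM against 76.5 and 59.8). Over all libraries the interactions of HSP17-6, HSP17.8 and Hsp20.0 were -0.83, -0.63 and -0.67, and none passed the test, nor did any of their differences between the lines. Without CS2 at 1 h replicate 1 they were -1.32, -1.13 and -1.05, with adjusted p of 0.00391, 0.00256 and 0.0483. That library was picked out by the values of these same genes, and each gene passed in 1 of 29 settings, this one. Without CS3 at 0 h replicate 2 and CS2 at 1 h replicate 3 together the interactions were -0.44, -0.36 and -0.32, and none passed. Counts of these genes reach 0.699 to 0.958 of their length, near the ceiling that the removal of duplicate reads sets, and correcting for it moved the interactions to -1.24, -1.37 and -1.57 (adjusted p of 0.117, 0.0701 and 0.0638). These genes belong to a family of neighbours with similar sequence, so the division of reads among them is uncertain.

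Among regulators of the heat response, 1 of the 5 tested was called, HSFA1A (20%, against 21.1% of all genes). HSTF24 (Solyc02g090820.3), the tomato HsfB1, was at 250, 277 and 215 CPM in heated WT. The heated CS2 libraries held 87.5, 33.3 and 40.3 CPM, all below WT, and the heated CS3 libraries 163, 241 and 179 CPM, which overlap with WT. Its pooled interaction of -1.12 ± 0.40 missed the threshold (adjusted p = 0.0504) and passed it in 11 of 30 settings (-1.39 to -0.83). It averages a value of -2.09 for CS2, which passed (adjusted p = 0.00432), with a value of -0.16 for CS3, which did not (adjusted p = 0.864), and the difference between the lines did not pass either (-1.93, adjusted p = 0.164). ER24, an MBF1 coactivator, had mean levels after heat of 279 CPM for WT, 267 CPM for CS2 and 316 CPM for CS3. Its interaction of -0.06 ± 0.33 did not pass. The interaction of HSFA2 (Solyc08g062960.4) was -0.19 ± 0.47, against responses of 7.25 in WT and 7.07 in the lines. For ER24 and HSFA2 the sign of the interaction turned under some alternatives.

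**Figure D3:**
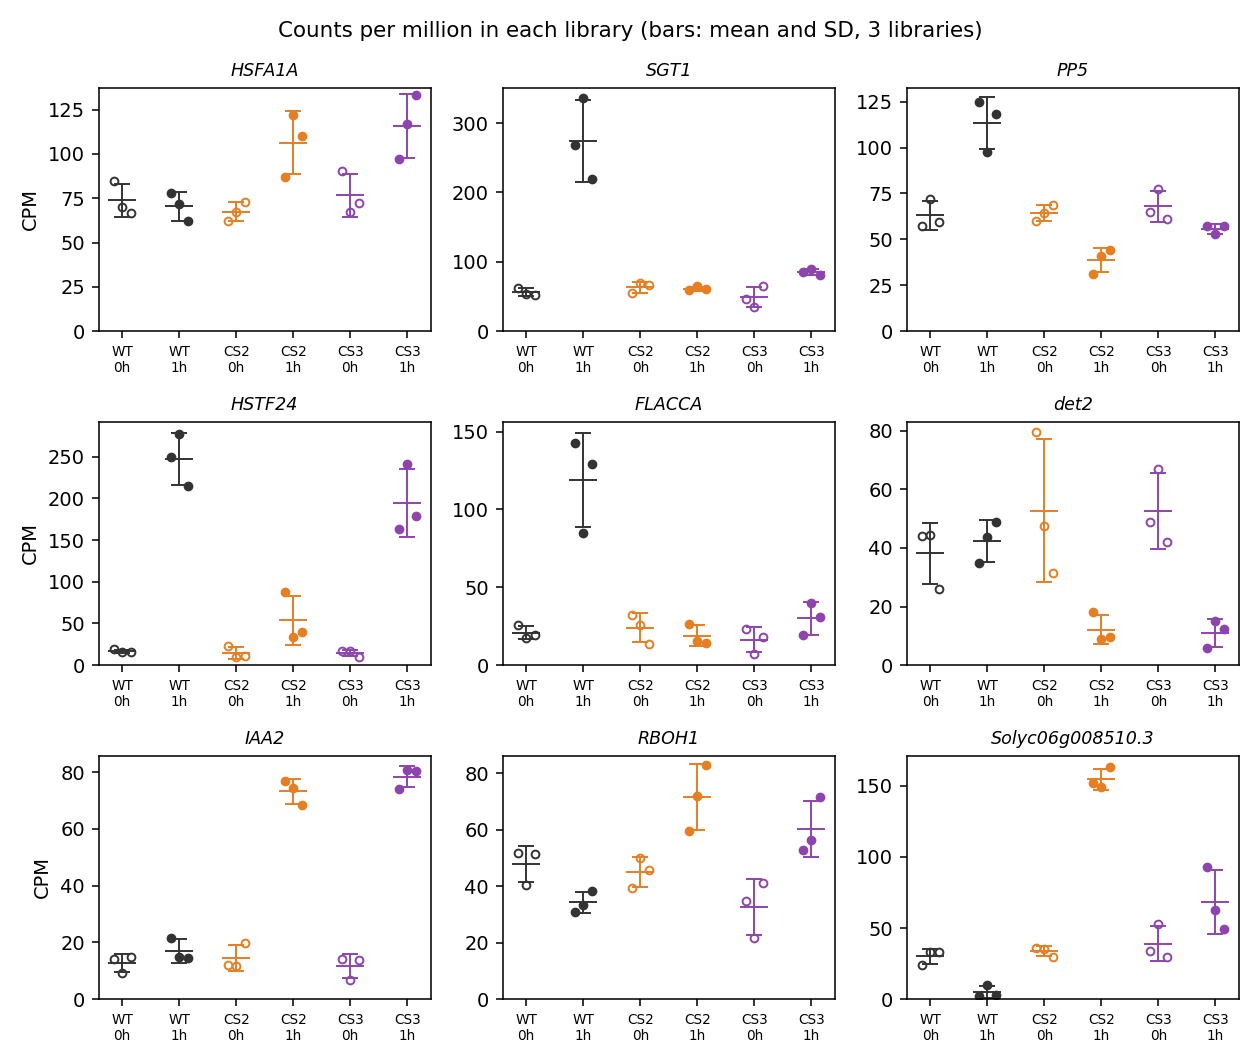
CPM (y axis, linear and from 0) in each library for 9 genes, by line and time (x axis); open circles are 0 h and filled circles 1 h, and the bars are the mean and SD of 3 libraries. SGT1, PP5 and FLACCA are highest in heated WT, IAA2 and Solyc06g008510.3 are highest in the heated lines, and HSTF24 in heated CS3 (163 to 241 CPM) lies above CS2 (33.3 to 87.5 CPM).

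The most positive interactions among genes with a symbol began with IAA2 (Solyc06g084070.3), an Aux/IAA repressor of auxin responses. It was at 14.3, 9.13 and 14.7 CPM in WT at 0 h and at 21.7, 14.7 and 14.5 CPM at 1 h. The lines went from 6.67 to 19.8 CPM (median 12.9) to 68.3 to 80.6 CPM (median 75.7). The heated line libraries lay close together and far above WT, and the interaction was 2.11 ± 0.32 (adjusted p = 0.000227). WT gave no call for this gene, with a response of 0.42 against 2.53 in the lines.

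Other genes were induced in the lines with a smaller response, or none that passed, in WT. ERF-B13, an ethylene response factor, was at 2.07 to 9.14 CPM in heated WT and 19.4 to 32.9 CPM in the heated lines (interaction 1.99, adjusted p = 0.0201). The transporter gene ABCC3 was at 37.1 to 42.6 CPM and 60.7 to 140 CPM (1.67, adjusted p = 0.00625). EXLA1, an expansin-like cell wall protein, rose in WT to 50.8 to 60.1 CPM and in the lines to 97.8 to 150 CPM (1.28, adjusted p = 0.000677). The cyclin-dependent kinase inhibitor gene krp1 was at 85.1 to 142 CPM and 192 to 285 CPM in the same libraries (1.30, adjusted p = 0.000444). In none of these 4 genes did heated WT and heated lines overlap, which is a description, since they were named for their interaction. Of the 4, only ERF-B13 lost its call under an alternative, without WT at 0 h replicate 1, WT at 1 h replicate 1 or WT at 1 h replicate 3 (adjusted p of up to 0.108). The genes cevi16 (1.71, passing in 24 of 30 settings), BR1 (1.47), P18 (1.32), which encodes a dUTPase, and PAP1 (1.30) were called higher too.

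Genes that heat lowered in WT and not in the lines included GME1 (Solyc01g097340.3), the GDP-mannose epimerase of ascorbate synthesis. It was at 178, 170 and 202 CPM in WT at 0 h and at 69.3, 116 and 73.7 CPM at 1 h. The lines held 133 to 167 CPM at 0 h (median 154) and 134 to 188 CPM at 1 h (median 161). The WT response was -1.09 and that of the lines 0.04, giving an interaction of 1.13 ± 0.20 (adjusted p = 0.000645). Every heated line library was above heated WT, and every unheated one below unheated WT.

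RBOH1 (Solyc08g081690.3), an NADPH oxidase that makes signalling superoxide at the cell surface, was at 51.6, 40.4 and 51.2 CPM in unheated and at 31.0, 33.5 and 38.2 CPM in heated WT. In the lines it was between 21.8 and 50 CPM at 0 h (median 40.2) and between 52.9 and 82.8 CPM at 1 h (median 65.5). The interaction was 1.25 ± 0.24 (adjusted p = 0.00144), from a response of -0.47 in WT without a call (adjusted p = 0.0598) and of 0.78 in the lines, and heated WT and heated lines did not overlap. TBG1, a beta-galactosidase of the cell wall, had an interaction of 1.18 (adjusted p = 0.000268) with 22.9 to 27.9 CPM in heated WT and 43.0 to 57.6 CPM in the heated lines.

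Solyc06g008510.3 (plus strand of chromosome 6, 2419759 to 2422896), which has no symbol, reversed its response. It was at 24.2, 33.5 and 33.1 CPM in WT at 0 h and fell to 2.59, 10.2 and 3.07 CPM. The lines, at 29.9 to 53 CPM before heat, reached 152, 149 and 163 CPM (CS2) and 93.2, 62.4 and 49.3 CPM (CS3), all above WT. The interaction was 4.04 ± 0.41 (adjusted p = 6.81e-06). The other gene without a symbol that the rule names on this side, Solyc01g098530.3, was at 20 to 56.4 CPM in the heated lines and at 0 to 2.03 CPM in heated WT, and its interaction of 6.13 rests on 0 to 12 counts at 0 h.

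**Figure D4:**
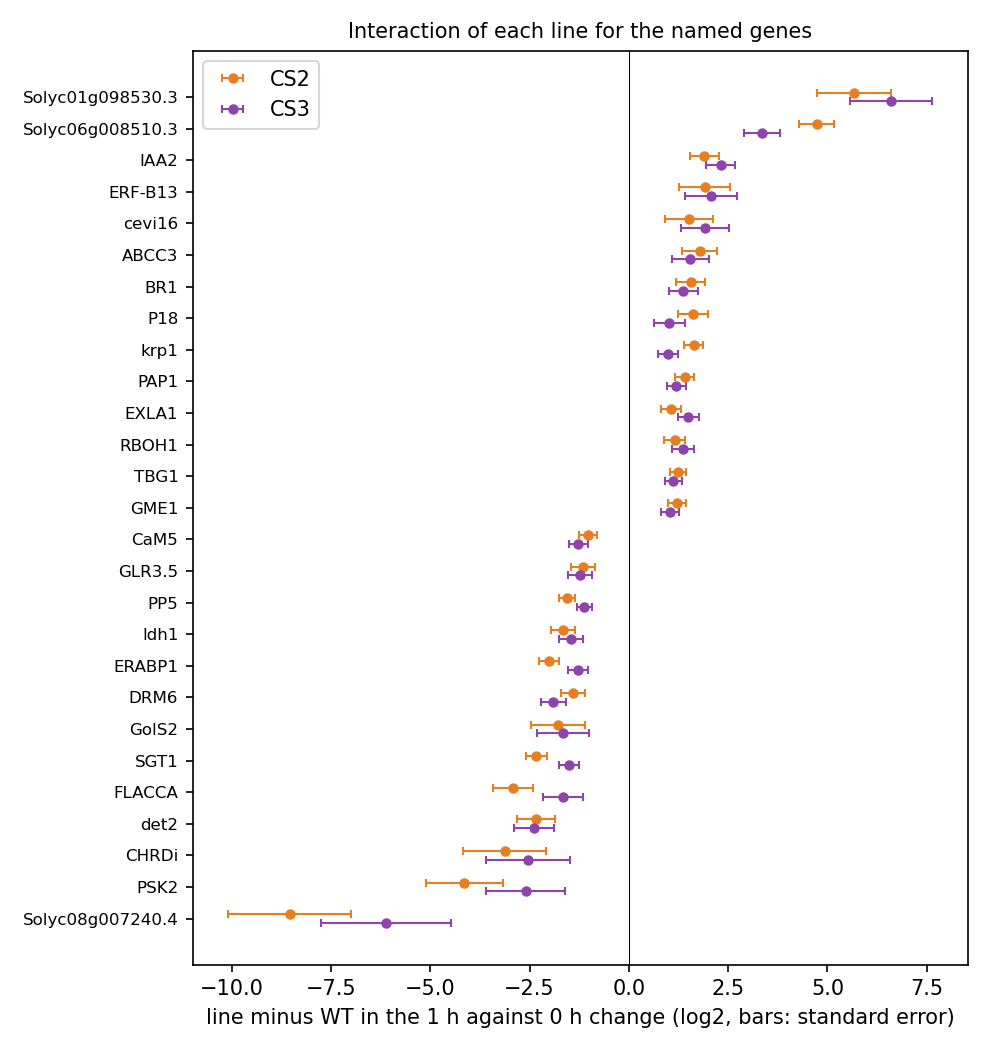
Interaction of CS2 (orange) and CS3 (purple) with WT (x axis, log2; bars, standard error) for the genes named by size, higher genes above and lower genes below, without Solyc03g118060.3, which has 0 counts in unheated WT. The 6 WT libraries serve for both lines, whose values are therefore not independent; the rule required the same direction in both lines, and IAA2 is at 1.90 and 2.31.

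Gene groups were described by lists of symbols, of which 218 members were tested and 41 called, 27 higher and 14 lower (18.8%, against 21.1% of all genes). The antioxidant list had 4 of 16 members called (25%), all higher: RBOH1, GME1, GSH2 (0.73), which makes glutathione, and the glutathione peroxidase GPXle-1 (0.60). Its median was 0.20, against 0.05 over all genes. In GSH2, WT fell by 0.46 and the lines rose by 0.27, whereas GPXle-1 rose in both; the call of GPXle-1 was lost without replicate 1 of WT at 0 h or replicate 3 of WT at 1 h (adjusted p of up to 0.0534). RBOH1 produces reactive oxygen rather than removing it.

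Of 17 cell wall genes, 6 were higher and 1 lower (41.2% called, against 21.1% of all genes, median 0.19). The named members were TBG1, EXLA1, TBG6 (0.75), another beta-galactosidase, and the expansin EXPA10 (0.83), which missed the threshold without WT at 0 h replicate 3 (adjusted p = 0.0544). Among 12 genes of hexose and starch metabolism 3 were higher and none lower (25% called, near the share of all genes), with a median of 0.33. AgpL1, a large subunit of the ADP-glucose pyrophosphorylase that commits sugar to starch, fell by 0.88 in WT and was at 0.12 without a call in the lines (interaction 1.00). LIN8, an invertase that splits sucrose, fell by 2.64 in WT and by 1.55 in the lines (interaction 1.09). The starch synthase GBSS1 had an interaction of 0.59. LIN8 passed in 24 of 30 settings and GBSS1 in 26 of 29, the losses coming with single libraries of WT left out and, for LIN8, also with CS3 at 1 h replicate 1.

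Hormone lists were mixed. Of 22 auxin genes 3 were higher and 3 lower (27.3% called, against 21.1% of all genes), with IAA2 and IAA8 (0.97) on the higher side. IAA8 fell by 1.52 in WT and by 0.54 in the lines. The ethylene receptor ETR1 was the only lower one of 5 ethylene genes (-0.73, adjusted p = 0.00217), at 54.4 to 65.2 CPM in heated WT and 32.1 to 39.2 CPM in the heated lines. The jasmonate list of 6 had 1 call, the repressor JAZ2 (1.12), which passed in 24 of 30 settings. ERF-B13 was the only call among 6 ERF factors, GolS2 the only one among 4 dehydration and cold genes, and FKBP42 (-0.62, passing in 19 of 30 settings) the only one among 9 other FK506-binding proteins. The shares called were 20% (ethylene), 16.7% (jasmonate and ERF), 25% (dehydration and cold) and 11.1% (other FK506-binding proteins). No member of the WRKY list (3 tested) or the carotenoid list (9 tested) was called.

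In the list of 20 chromatin and small RNA genes, 4 were lower and 1 higher (25% called, against 21.1% of all genes), with a median of -0.11. AGO2A, an Argonaute protein that carries small RNAs, was at 165 to 198 CPM in heated WT and 213 to 394 CPM in the heated lines (interaction 1.03, adjusted p = 0.000214); at 0 h it was slightly lower in the lines, at 68.6 to 86.0 CPM against 88.0 to 107 CPM. Besides DRM6, the methyltransferase gene DNMT2 (-0.53) and the chromatin remodelling gene SWI3D (-0.45) were lower, in 26 and 22 of 30 settings. Of the 15 kinase and calcium signalling genes, CaM6 (0.79) and the calcium sensor CBL2 (1.08) were higher and CaM5 lower (20% called). CaM6 was at 54.4 to 57.9 CPM in heated WT and 93.2 to 110 CPM in the heated lines, the opposite order to CaM5. For 19 ABC transporters (15.8% called) there were 2 higher calls (ABCC3 and ABCI2, 0.81) and 1 lower (ABCC1, -0.83, adjusted p = 0.0527 without WT at 1 h replicate 2).

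**Figure D5:**
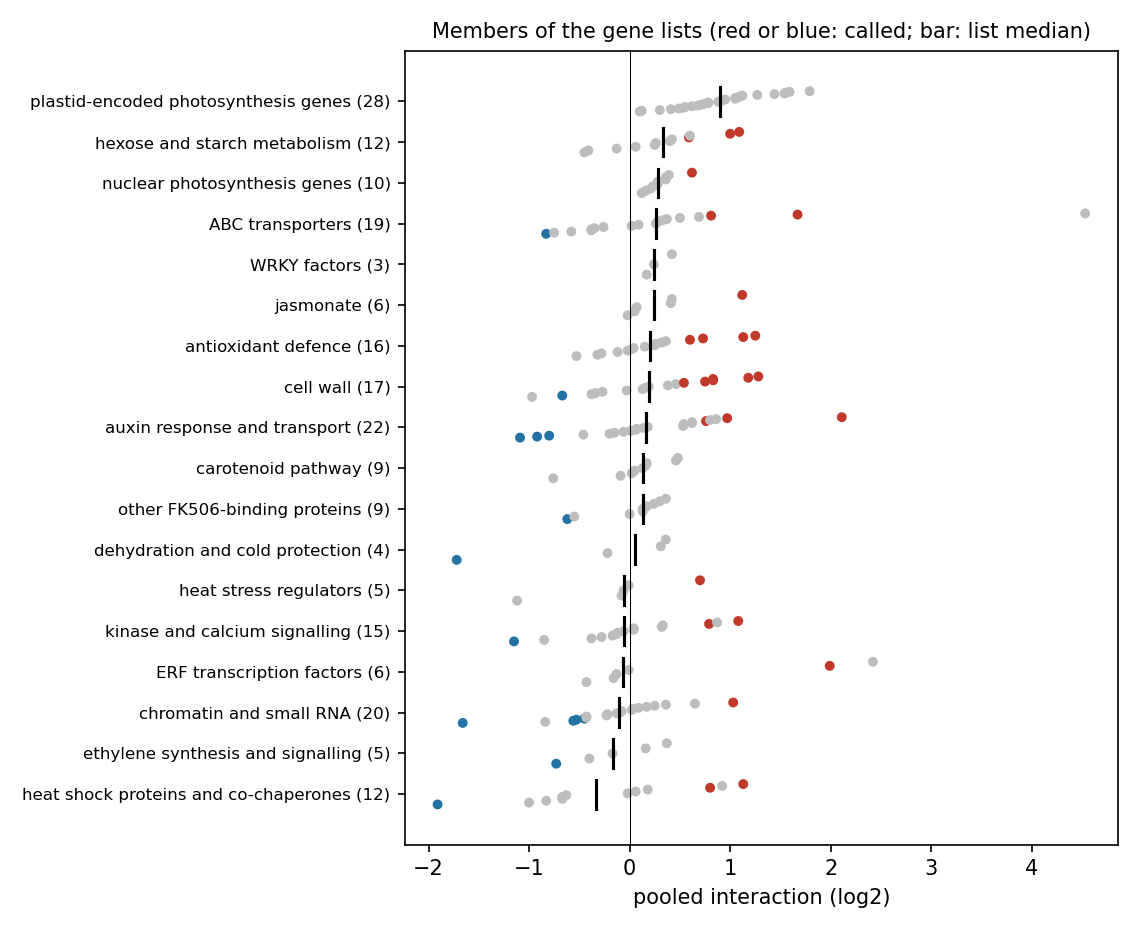
Interaction (x axis, log2) of every tested member of the 18 gene lists, with the number tested in parentheses; red and blue points passed the test, grey points did not, and the black bar is the list's median. The 28 plastid-encoded photosynthesis genes all lie above 0 with a median of 0.90 and without a call.

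Genes encoded in the organelles formed a group of their own. All 38 plastid and all 5 mitochondrial genes tested had positive interactions, with medians of 0.93 and 0.57, and none passed the test. Among the 28 plastid genes of photosynthesis, the median was 0.90, composed of a WT response of 0.29 and a line response of 1.16. The largest values belonged to the NADH dehydrogenase-like complex, with 1.79 ± 0.77 for ndhH, 1.59 for ndhE, 1.55 for ndhD and 1.54 for ndhA, and the smallest to the ATP synthase genes atpB (0.10) and atpE (0.12).

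These genes moved with the libraries that stood apart. The plastid share of counts was 0.209% to 0.278% in unheated and 0.236% to 0.291% in heated WT, and in the lines 0.146% to 0.184% at 0 h apart from the 0.353% of CS3 replicate 2, and 0.306% to 0.429% at 1 h apart from the 0.135% of CS2 replicate 3. Without both libraries the median of the plastid photosynthesis genes was 1.28, and ndhH (2.69), ndhE (2.27), ndhD (2.29) and ndhA (2.25) passed the test with adjusted p between 0.000672 and 0.00112. Both libraries stood apart in the plastid share itself, each in the direction that lowers these interactions. Leaving them out after the data were seen was thus bound to raise the median, and these p-values add no support. Without CS2 at 1 h replicate 1 the median was 0.65. The part of the plastid share of a library in the other results was not tested. For nuclear photosynthesis genes, 1 of 10 was called (10%, against 21.1% of all genes), PSBR (0.62), a protein of photosystem II, and the median was 0.28. PSBR missed the threshold without replicate 3 of WT at 0 h or at 1 h (adjusted p of up to 0.0838).

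The heat responses of CS2 and CS3, which the comparison averages, were also compared with each other, without any WT library. Of 15312 genes, 16 differed (0.104%, and 1204 at an unadjusted p under 0.05), 14 of them (0.0914%) with the lower response in CS2. The number was 38 without CS2 at 1 h replicate 1 and 7 without CS2 at 1 h replicate 3. With DESeq2 there were 57. A missing call is not evidence that CS2 and CS3 responded equally. The difference had a median SE of 0.254 on the log2 scale, with 3 libraries per condition. Against the same WT libraries, CS2 alone gave 3026 calls (19.8%) and CS3 alone 1571 (10.3%), the latter 967 without WT at 0 h replicate 3. The median interaction of the genes called lower was -0.99 in CS2 and -0.83 in CS3, and that of the genes called higher 0.98 and 0.80.

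The 16 genes were chosen by their difference, and their values are a description. In Solyc06g005550.3, which had the largest, the heat response was 2.63 in WT, -0.62 in CS2 and 3.73 in CS3. Next came Solyc09g075950.1, with responses of 5.80, 2.13 and 4.80. In Solyc03g083420.4, the larger of the 2 with the higher response in CS2, they were 0.23, 2.07 and -0.25. These genes were singled out after their values were seen. DDTFR10A was the only one of the 16 with a symbol, and its pooled interaction of -0.13 averages responses of -0.81 in CS2 and 1.12 in CS3, against 0.28 in WT.

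Called genes were spread over the genome. On the 12 chromosomes the share of tested genes called ranged from 18.8% on chromosome 11 (Clopper-Pearson 95% interval 16.4% to 21.4%, covering counting error only) to 22.8% on chromosome 9 (20.4% to 25.4%). In the stretch of chromosome 6 that holds the small HSP genes, the flanking Solyc06g076510.3 had an interaction of 0.66 (adjusted p = 0.0417) that passed in 11 of 30 settings, and HSP20-1 and its neighbours Solyc06g076540.1, Solyc06g076550.4 and Solyc06g076580.1 did not reach the minimum count. Of the other genes that the study singles out, Solyc09g074475.1 had an interaction of -0.27 ± 1.20 with 0 to 7 counts per library at 0 h, a value whose sign is not fixed (-0.66 to 1.28 across settings). At 1 h it was at 68.1 to 89.5 CPM in WT and at 8.79 to 75.1 CPM (median 25.1) in the lines, lower by a log2 difference of -1.73 (adjusted p = 8.52e-05), with overlap. Solyc03g026270.3 held 0 counts in all 9 unheated libraries, so that no interaction can be given for it. At 1 h it was higher in the lines, at 25.5 to 72.1 CPM (median 41.8) against 3.56 to 10.9 CPM in WT, without overlap. The actin gene Solyc03g078400.3 had an interaction of 0.25 that did not pass (adjusted p = 0.303).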

How the data were processed

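The RNA-seq values come from 1 table of counts per gene that the authors deposited, whole numbers without normalization, for 18 libraries. Reads were single-end and 75 bp long, from strand-specific libraries of total RNA. Per the labels, the tools were Trimmomatic 0.38, Bowtie2 2.3.5, SAMtools 1.9 and featureCounts; in the methods of the study the aligner is STAR. Per the file headers, alignments to the M82 assembly were kept above a mapping quality limit, PCR duplicates were removed, and reverse-strand reads over whole gene spans (introns included) were counted, reads on several genes on each of them. Since reads starting at the same position count once, the counts of short abundant genes level off: 1069 tested genes reached 0.3 of their length. Length columns of the deposited table hold the gene span in bases and gave this share.

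The line and time of each column came from its name. No pair of replicates agreed within sampling noise (chi-square per degree of freedom between 1.56 and 11). The test was run on 15312 of 35821 genes, those with 50 or more counts in 2 or more libraries. All libraries entered one edgeR (version 4.0.16, with limma 3.58.1, R 4.3.3) quasi-likelihood fit of 6 conditions with TMM scaling, no covariates and Benjamini-Hochberg adjustment over all tested genes. The common dispersion was 0.0223 with 3 libraries per condition, so that small differences of low genes are not detectable. CPM use TMM-adjusted library sizes and are not per length. The test was also run on simulated counts, in which no library was set apart and duplicate removal set no ceiling. That run cannot show how the test behaves with either. Alternatives were DESeq2 1.42.0, other scalings and filters, a minimum size, 4 conditions, the replicate number as a block, leaving out each library, and 2 treatments of the ceiling from duplicate removal (leaving out genes that reach 0.3 of their length, and a correction that took at most 0.95 of a gene as filled). Leaving out both libraries that stood apart was added after the data were seen.

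The members, lists and rules were chosen with earlier results of these data known. The deposited table gives no gene names. Symbols were taken from a RefSeq table of assembly SLM_r2.1 by matching the distances to neighbouring genes within 60000 bases. The tolerance was 200 bases, and gene lengths had to lie within 1500 bases of each other. A gene needed at least 8 neighbours in that window, matches for at least 50% of them and a lead of 4 over the next best place. This located 8103 of 28485 genes, 726 with a symbol, against 11 of 28485 in a search on wrong chromosomes. These settings were the third tried: the first placed few genes and missed HSFA1A, and the second gave more wrong-chromosome matches. Symbols are therefore inferences from gene order, and coordinates are those of the deposited table. The lists planned on gene descriptions could not be applied and were rebuilt on symbols after the files were seen; ER24 was added through its synonym MBF1.

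Named genes are those the study names; the 12 with a symbol and the 2 without one that had the largest interaction of each sign, among called genes with an unadjusted p under 0.05 the same way in CS2 and CS3 and a condition mean of at least 20 CPM; and up to 4 members per list with the smallest p. The 2 without a symbol were kept because the table names only some genes. Genes picked by size or p were chosen on these same data, so a lack of overlap between WT and lines among them is a description. No sequence is printed, as none was used here. Some members of the lists are counted but not reported singly here.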

Additional observations from a re-analysis of the deposited data

Results flagged for a closer look

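The heat response differed between WT and the mean of CS2 and CS3 for 3232 genes, by the test of that difference itself, and between CS2 and CS3 for 16 genes.

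In groups of 6 line libraries per time, 78 comparisons were made of whether the highest or lowest library lay far from the rest, of which chance marks about 1 in 20. At 0 h, CS3 replicate 2 stood apart in its plastid share of counts (0.353%, the next highest being 0.184%), and in single genes: TBG1 was lowest there at 25.6 CPM, and Solyc03g118060.3 (1.4 CPM), Solyc06g008510.3 (53.0 CPM), HSP17-6 (27.4 CPM) and krp1 (68.8 CPM) were highest there. Solyc08g007240.4 was highest in CS2 replicate 1 at 0 h (14.3 CPM). At 1 h, CS2 replicate 3 had the highest total count, 3669618. Without CS3 at 0 h replicate 2 all 52 named calls other than that of HSFA1A passed the test again, and without both libraries that stood apart 50 did, FKBP42 and GolS2 being the exceptions.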

How the results depend on the processing

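No named gene with a call changed the sign of its interaction under an alternative, and the signs of the other called genes were not followed. Of the named genes without a call, 5 did: Solyc09g074475.1 (-0.66 to 1.28), HSFA2 (Solyc08g062960.4; -0.35 to 0.07), ER24 (-0.38 to 0.09), MBF1a (-0.24 to 0.03) and OPR1 (-0.02 to 0.16), as did the medians of the ERF, dehydration and cold, heat stress regulator and kinase and calcium lists. The balance of higher and lower calls turned too, from 1637 and 1595 to 1490 and 1859 without a filter, 1556 and 1869 with filterByExpr and 1514 and 1772 with the ceiling corrected. The number of genes in the pooled interaction was 3168 with DESeq2, 3123 with library size scaling (1421 higher and 1702 lower), 3349 without a filter, 2732 with 4 conditions, 3050 without genes that reach 0.3 of their length and 3286 with the ceiling corrected, of which 3021, 3007, 2781, 2722, 2984 and 3084 were among the 3232. A replicate block gave 3204; same-numbered libraries correlated above 0.1 in 13 of 45 pairs, so the numbers are not treated as pairs. Of 53 named genes called, 33 passed under every alternative with a value and 20 missed it under at least 1.

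A minimum size of 1 left 1315 genes (670 higher, 645 lower), 1627 for CS2, 877 for CS3, 3226 for the WT heat response, 3047 for that of the lines, 16 at 0 h and 1448 at 1 h; 284 lower genes induced in WT and 361 not, 319 higher genes repressed in WT and 351 not; 17 list members; 7.19% to 9.55% per chromosome; and it removes HSFA1A (0.70). DESeq2 gave 57 genes for the line difference (15 higher, 42 lower) and 56 at 0 h. Without a filter these were 36 (4 and 32) and 71, and the chromosomes 11.8% to 13.9%, as more genes were tested; filterByExpr gave a highest chromosome of 20.1%. With 4 conditions there were 8 genes at 0 h and 16.2% to 19.5% per chromosome. Without both libraries that stood apart, the line difference held 2 genes (1 and 1), 0 h 58, the lists 78 members and the chromosomes 24.5% to 28.8%. Causes other than the number of genes tested were not tested.

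With single libraries left out, the pooled interaction ranged from 2260 to 3954 (higher 1074 to 2015, lower 1159 to 1939), CS2 from 2176 to 3789, CS3 from 967 (without WT at 0 h replicate 3) to 1937, the line difference from 7 (without CS2 at 1 h replicate 3) to 38 (without CS2 at 1 h replicate 1; higher 2 to 4, lower 5 to 35), 0 h from 9 (without WT at 0 h replicate 3) to 52 (without CS3 at 0 h replicate 2), 1 h from 3734 to 6007, list members from 26 (without WT at 1 h replicate 3) to 61, and the WT and line heat responses from 6335 to 8222 and 9923 to 10715. Lower genes induced in WT ranged from 595 to 961 and the other lower genes from 502 to 978; higher genes repressed in WT from 538 to 1008 and the others from 536 to 1007. The lowest chromosome ranged from 12.8% to 22.9%, the highest from 16.1% to 28.5%, and HSFA1A from 0.59 to 0.78.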
